A study of Homo sapiens with 6 samples.

Results

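The genes described here are 29 members of the p53 pathway, a set of p53 regulators and direct p53 targets in a line with wild-type p53. They are MDM2, MDM4, PPM1D, CCNG1, PLK2, PLK3, TP53INP1, TNFRSF10A, TNFRSF10B, TNFRSF10C, FAS, BBC3, PMAIP1, BAX, AEN, PHLDA3, TRIAP1, SPATA18, TP53I3, FDXR, XPC, DDB2, POLH, RRM2B, GADD45A, GDF15, SESN1, ZMAT3 and RPS27L. Members were taken from the deposited expression table by exact gene symbol, and all 29 were found among its 31628 genes. The cells were HCT116, a human colon cancer line, in which the histone acetylation reader ENL carries an auxin-inducible degron (AID) and the plant F-box protein AtAFB2 is stably expressed, so that auxin directs ENL to degradation. Every group carried both constructs. Clones had been selected with puromycin and blasticidin. Whether the libraries came from 1 clone is not stated. The washout group received 500 um (the labels' unit) of IAA, an auxin, over 3 h, was washed with PBS and was then grown for 48 h in normal medium. The IAA group received the same dose for 3 h and was harvested. The control group was the same line without IAA. Each of the 3 groups had 2 RNA-seq libraries. Cells without the degron that received IAA were not analysed here, so loss of ENL and other effects of auxin cannot be told apart.

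p53 is a transcription factor that is held low by MDM2, a ubiquitin ligase that is itself a p53 target, and by the related inhibitor MDM4. When DNA damage, ribosome stress or other signals release p53, it binds paired copies of a short motif near its targets and raises genes that arrest the cycle, repair DNA, change metabolism or start apoptosis. Several targets, among them GDF15, GADD45A, SESN2 and the death receptor gene TNFRSF10B, also respond to other stress pathways, such as the ATF4 branch of the integrated stress response.

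Library totals, inferred from the steps of the deposited FPKM, lay between 16442840 and 16770850 reads. Replicates had a Pearson r across genes of 0.9914 to 0.9926 (genes are not independent replicates). Of 10 colon epithelium markers, 7 averaged 1 FPKM or more, EPCAM, KRT8, KRT18 and KRT19 among them, while CDX1 and CEACAM5 were listed at 0 in all libraries. The 10 markers summed to 328 and 343 FPKM in washout, 275 and 272 FPKM with IAA, and 340 and 349.6 FPKM in control. Most of each sum was KRT18 and KRT19. KRT18 had 135 and 127 FPKM with IAA and 167 and 174 FPKM in control. KRT19 had 104 and 107 FPKM with IAA and 131 and 132 FPKM in control. Of the 7 tested, KRT8, KRT18 and KRT19 fell in IAA against control (limma), 0 rose and 4 did not pass, against 6.49% of all genes that fell. On reads recovered from the FPKM, described below, 1 of 7 rose and 4 fell, against 13.7% and 10.2% of all genes. The part of these markers in the members' changes was not tested. Of 14 markers of fibroblasts, endothelium and blood in the table, 0 averaged 1 FPKM or more, so 0 were tested on FPKM. Their summed FPKM was 0.82 and 0.78 in washout, 0.86 and 0.65 with IAA, and 0.57 and 0.60 in control. COL1A1 alone had 0.74 and 0.71 FPKM in washout, 0.76 and 0.60 FPKM with IAA, and 0.53 and 0.51 FPKM in control. By their steps, the deposited FPKM (fragments per kilobase of gene, scaled to library size) divide by the whole gene span, introns included. Long genes therefore read low, and levels of single genes are compared only within a gene. The sums of FPKM over a list are led by its genes of high FPKM and do not describe the list as a whole. Genes that averaged 1 FPKM or more across the libraries were tested on log2(FPKM + 1), and 23 of the 29 members did. Of the other 6, SPATA18 was listed at 0 in every library. BBC3, POLH, SESN1, RPS27L and TNFRSF10C lay below the filter and were tested on whole reads recovered from the FPKM, where 28 members could be tested. The sources used here do not say what a replicate number stands for, so p-values measure only the spread between these libraries, which may be technical. In such bulk samples fewer cells with a transcript and less of it per cell cannot be told apart. In GENCODE 29, exons of MDM2, PLK3, FAS, TNFRSF10A, TNFRSF10B, TNFRSF10C, BBC3, PHLDA3, TP53I3, XPC, POLH and SESN1 overlap those of another gene, and as the sources used here do not give the strand that was counted, some of their reads may belong to it.

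RefSeq promoter windows of GRCh38.p14, 250 bases before to 50 after a transcription start, were held for 22 of the 29 members. They were scanned on both strands for the p53 consensus, a pair of 10-base copies searched here without a spacer, allowing up to 3 mismatches outside the C and G of each core. A match was present in 10 of the 33 windows of these genes, which belong to 9 of the 22 members, against 1.12% of all 35114 windows. The matches are shown because they are the stretches of these genes that resemble the motif p53 binds. They are written 5′ to 3′ on the gene's strand, and capitals mark the 4-base core of each copy.
AEN: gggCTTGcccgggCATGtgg
DDB2: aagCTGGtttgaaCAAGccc
FAS: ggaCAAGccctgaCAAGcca
FDXR: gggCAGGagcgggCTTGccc
GDF15: agcCATGcccgggCAAGaac
MDM2: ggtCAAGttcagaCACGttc
PMAIP1: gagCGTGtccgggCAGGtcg
RPS27L: ggcCTAGagcagaCAAGccc
SESN1: ggaCAAGtctccaCAAGtca

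The closest match to the consensus was that of DDB2, with 1 mismatch, at chr11:47214969-47214988 on the + strand, where its first base lies 5 bases before the start. MDM2, with 2 mismatches, has its match at chr12:68808923-68808942 (+), 94 bases before the start of the inner of its promoters. The match of AEN lies at chr15:88621306-88621325 (+), 34 bases before the start, and that of FAS at chr10:88991309-88991328 (+), 122 bases before it, with 2 mismatches each. The remaining 5 had 3 mismatches each. They lie at chr17:74872996-74873015 (−) in FDXR, 21 bases before the start, at chr18:59899811-59899830 (+) in PMAIP1, 185 before, at chr15:63157527-63157546 (−) in RPS27L, 69 before, and at chr6:109009018-109009037 (−) in SESN1, 49 before. That of GDF15 is the only one of the 9 past the start, with its first base 28 bases after it, at chr19:18386186-18386205 (+). A match describes letters and is not evidence of binding. The AP-1 motif TGANTCA was found in 4 of the 33 member windows, which belong to 3 members (BBC3, FAS and MDM2), against 7.71% of all windows. The ATF4 composite motif TGATGNAA was found in 1 of the 33, of PLK3, against 3.62%. The cyclic AMP response element TGACGTCA was found in 1, of PPM1D, against 1.85%. TNFRSF10A, TNFRSF10B, TNFRSF10C, PHLDA3, RRM2B, GADD45A and TP53INP1 had no window.

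The first comparison asked which transcripts differed 3 h after IAA. Of the 23 members tested, 4 rose with IAA (GDF15, GADD45A, TP53INP1 and XPC), 1 fell (PLK2) and 18 did not pass (limma, Benjamini-Hochberg adjusted p under 0.05 over all 8317 genes). The 4 are 17.4% of the tested members, against 6.64% of all genes tested that rose. The 1 that fell is 4.35%, against 6.49% of all genes. The median log2 change was 0.105 over the tested members and 0.014 over all genes. PLK2 fell to 0.534 of its control mean, while the IAA and control values of the feedback gene MDM2 overlapped. Over all genes 552 rose and 540 fell, and after rescaling every library to TPM 397 rose and 647 fell, so the higher share of calls was 50.5% and 38%. On that scale GDF15, GADD45A and TP53INP1 still passed and XPC did not (adjusted p = 0.0553, in a range of 1e-04 to 0.0878 over the alternatives that keep all libraries).

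**Figure D1:**
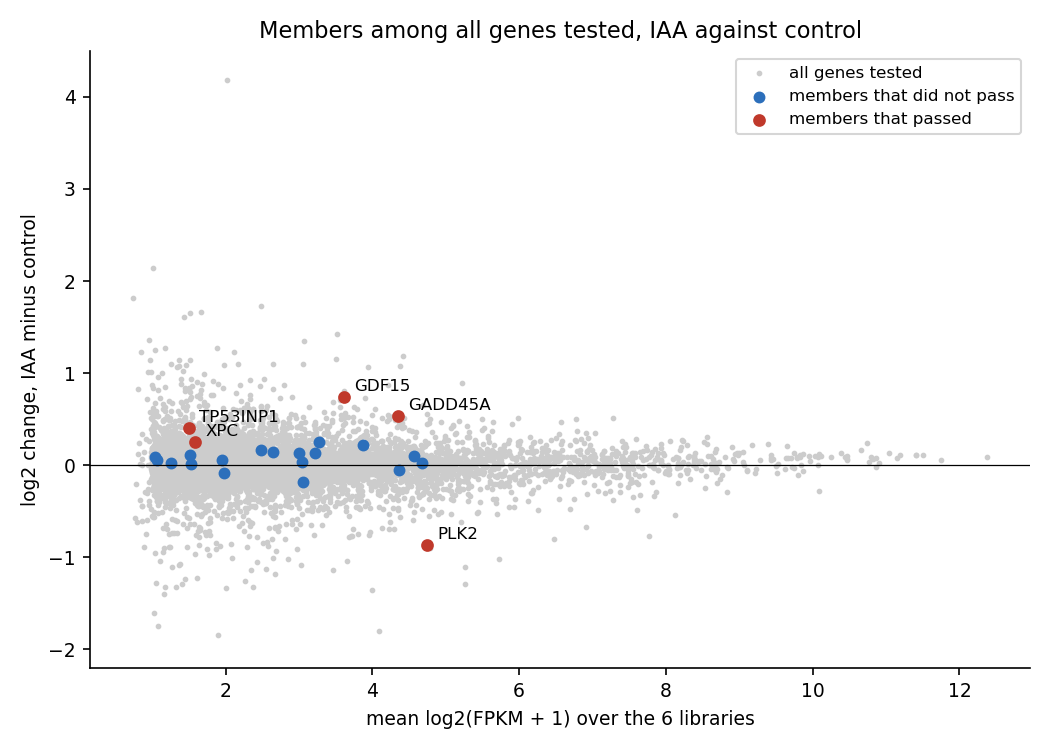
Each point is 1 of the 8317 genes tested, with its mean log2(FPKM + 1) over the 6 libraries on the horizontal axis and its log2 change, IAA minus control, on the vertical axis. The members that passed are red and named. The 18 that did not pass are blue and lie between BAX at -0.18 and PLK3 at 0.25, which is level with XPC, a member that passed.

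On recovered reads, tested with voom over 14742 genes, 11 of 28 members rose (39.3%, against 13.7% of all genes) and 2 fell (7.14%, against 10.2%), while 23.9% of all genes passed in either direction. Those that rose were GDF15, GADD45A, TP53INP1, XPC, CCNG1, PLK3, TNFRSF10B, RRM2B, BBC3, POLH and SESN1. Those that fell were PLK2 and BAX. The median log2 change was 0.161 over the members and 0.036 over all genes. These members had 103 to 4728 reads per library, while all genes tested reach down to a mean of 10 reads, where changes are harder to call. Here and below, shares on recovered reads were not matched for depth, so part of a difference from all genes may be depth. Both IAA libraries lay above both control libraries in 18 members and below both in 4, against 27.9% and 19.5% of the 21707 genes with a mean above 0. Of those genes 8317 averaged at least 1 FPKM, as did 23 of the members. That share was not matched to the members' levels, here or where it is used below.

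**Figure D2:**
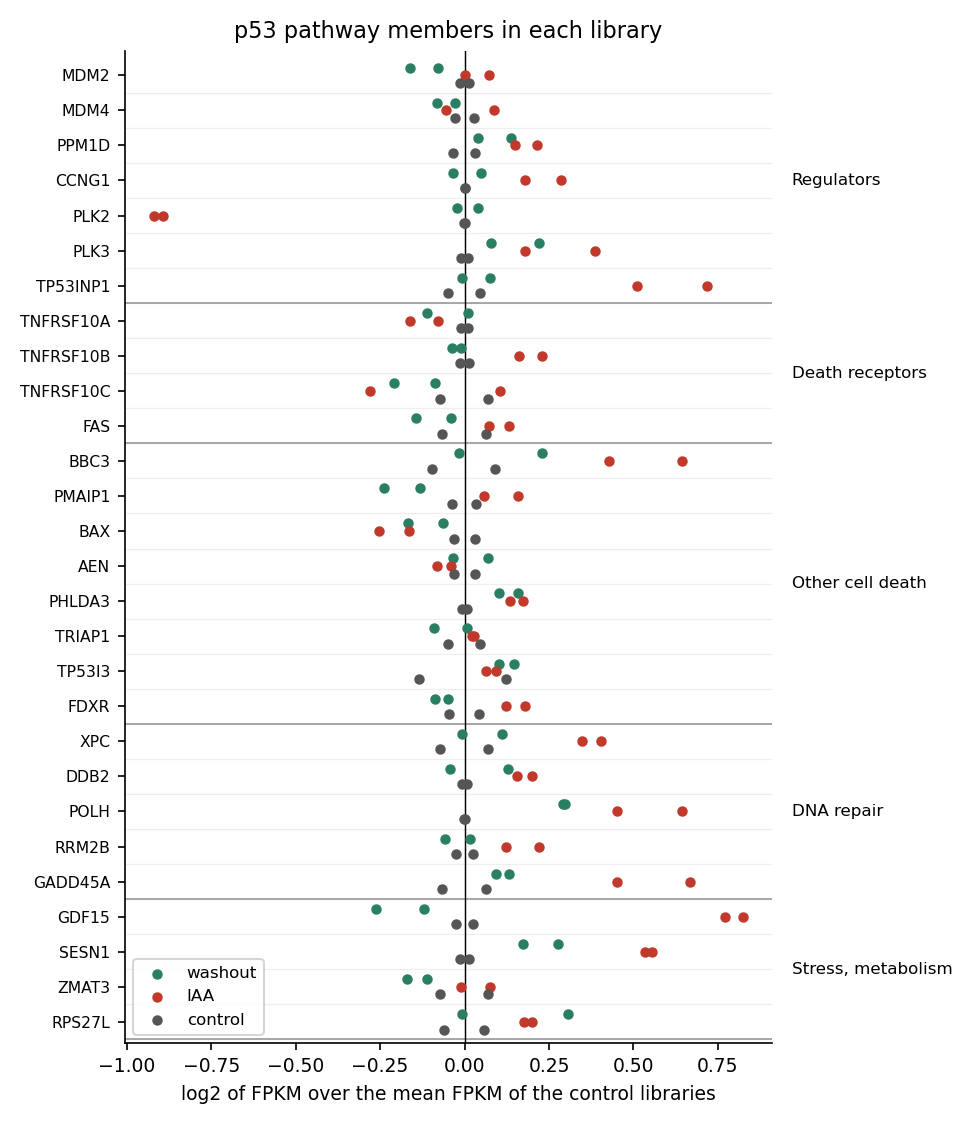
Each row is 1 of the 28 members above 0 and each point 1 library, placed by the log2 of its FPKM over the mean FPKM of the control libraries. Washout is green, IAA red and control grey, and rows are grouped by role. PLK2 has both IAA points far left of 0 with its washout points around 0, and the IAA points of GDF15 are farthest right.

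Of the 7 regulators of p53, 1 rose, 1 fell and 5 did not pass on FPKM, where 6.64% of all genes rose and 6.49% fell, so 1 of 7 either way is near the share over all genes. On recovered reads 3 rose and 1 fell, against 13.7% and 10.2%. PLK2, a stress kinase and p53 target, had 31.3 and 32.7 FPKM in washout, 17.1 and 16.8 FPKM with IAA, and 31.7 and 31.8 FPKM in control. Both IAA libraries lay far below the other 4, whose values overlap. The PLK2 log2 change was -0.87 in IAA against control (SE 0.04, limma adjusted p = 0.00258), and it passed without any 1 of the 6 libraries (adjusted p of 0.015 to 0.0424). TP53INP1, which promotes p53-dependent death and autophagy, had 1.65 and 1.56 FPKM in washout, 2.23 and 2.58 FPKM with IAA, and 1.52 and 1.62 FPKM in control. The IAA libraries were above all others and washout overlapped control. TP53INP1 rose 1.54-fold (log2 change 0.41, SE 0.062, limma adjusted p = 0.0237), a call that was lost without any 1 of the 6 libraries (adjusted p of 0.0551 to 0.109) while on recovered reads it held without each of them.

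MDM2 had 6.94 and 6.56 FPKM in washout, 7.72 and 7.35 FPKM with IAA, and 7.41 and 7.27 FPKM in control. IAA and control overlapped and the washout values were the lowest. The MDM2 log2 change in IAA against control was 0.03 (SE 0.045, limma adjusted p = 0.662). MDM4, the p53 inhibitor related to MDM2, averaged 1.82 ± 0.0474 FPKM in washout, 1.91 ± 0.132 FPKM with IAA and 1.89 ± 0.0536 FPKM in control (SD, n = 2 each), and its groups overlapped. PPM1D, the phosphatase WIP1 that switches the damage signal off, averaged 1.05 ± 0.0505 FPKM in washout, 1.12 ± 0.036 FPKM with IAA and 0.99 ± 0.0318 FPKM in control. It did not pass (limma adjusted p = 0.183). CCNG1, cyclin G, which recruits a phosphatase to MDM2, had 12.6 and 13.3 FPKM in washout, 14.6 and 15.7 FPKM with IAA, and 12.9 and 12.9 FPKM in control. Its IAA values were the highest, and its 1.18-fold difference from control passed on recovered reads but not on FPKM (limma adjusted p = 0.0631). That call on reads was lost without IAA replicate 2 (voom adjusted p = 0.0675, the highest over the 6 libraries left out; lowest 0.00108). PLK3, a stress kinase that acts on p53, had 9.10 and 8.24 FPKM in washout, 10.2 and 8.83 FPKM with IAA, and 7.86 and 7.75 FPKM in control. Washout and IAA overlapped, and control was lowest. PLK3 passed on recovered reads alone, a call lost without control replicate 1, control replicate 2 or IAA replicate 1 (voom adjusted p up to 0.226).

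The promoter of PLK2 is shown because PLK2 was the member that fell on FPKM, and that of GDF15 because it rose most. Both are the 250 bases before the RefSeq start on GRCh38.p14, written 5′ to 3′ on the gene's strand. The PLK2 stretch is chr5:58460087-58460336 (−) and the GDF15 stretch chr19:18385908-18386157 (+). Neither holds a p53 match by the rule above (the GDF15 match follows the start), so neither has capitals.
PLK2: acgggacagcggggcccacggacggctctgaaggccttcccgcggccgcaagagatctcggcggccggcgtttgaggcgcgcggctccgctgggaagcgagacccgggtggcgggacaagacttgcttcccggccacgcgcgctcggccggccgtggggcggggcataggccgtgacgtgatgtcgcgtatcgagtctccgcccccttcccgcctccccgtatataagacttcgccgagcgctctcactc
GDF15: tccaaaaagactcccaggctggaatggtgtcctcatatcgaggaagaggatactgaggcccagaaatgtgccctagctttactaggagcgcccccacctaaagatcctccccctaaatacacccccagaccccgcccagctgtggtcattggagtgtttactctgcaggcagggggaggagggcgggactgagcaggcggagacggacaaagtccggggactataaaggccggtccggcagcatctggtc

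GDF15, a secreted stress cytokine of the TGF-beta family, changed most among the members that rose. It had 8.97 and 8.11 FPKM in washout, 16.6 and 17.2 FPKM with IAA, and 9.90 and 9.57 FPKM in control. Both IAA libraries lay far above the others, and both washout libraries lay below both control libraries. GDF15 rose 1.74-fold (log2 change 0.74, SE 0.058, limma adjusted p = 0.00768). The call was lost without control replicate 1, control replicate 2, IAA replicate 1 or IAA replicate 2 (limma adjusted p up to 0.0669), and on recovered reads it held without each of the 6 libraries. SESN1, a sestrin that restrains mTORC1 signalling, had 218 and 202 recovered reads in washout, 260 and 261 with IAA, and 177 and 182 in control. The 3 groups did not overlap. The SESN1 log2 change on recovered reads was 0.54 in IAA against control (SE 0.141, voom adjusted p = 0.00414; 0.00333 to 0.0406 without each library in turn). On log2(FPKM + 1), where its values are near 0, it did not pass with a filter at 0.1 and did with none (limma adjusted p = 0.158 and 0.0345). ZMAT3, an RNA-binding protein and p53 target that controls splicing, averaged 1.29 ± 0.0357 FPKM in washout, 1.45 ± 0.0609 FPKM with IAA and 1.42 ± 0.0992 FPKM in control (SD, n = 2 each). Its IAA and control values overlapped. RPS27L, a ribosomal protein paralog, had 595 and 477 recovered reads in washout, 544 and 546 with IAA, and 459 and 503 in control. IAA lay above control, and the difference did not pass (voom adjusted p = 0.193). Reads of RPS27L and its near copy RPS27 may be shared, depending on how they were counted.

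**Figure D3:**
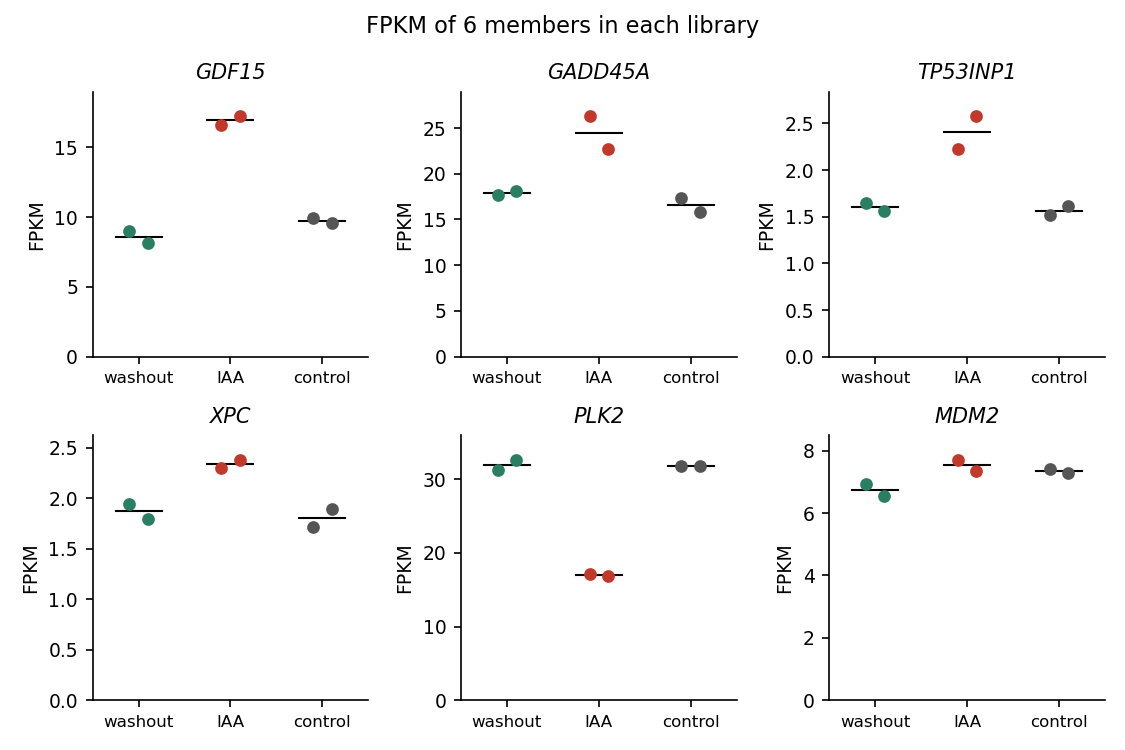
FPKM of 6 members, with points for the libraries and a line for the mean of each group of 2, and each axis starting at 0. GDF15, GADD45A, TP53INP1 and XPC are highest with IAA, PLK2 is lowest with IAA, and the IAA and control points of MDM2 overlap.

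In all 5 members of the DNA repair and nucleotide supply group, both IAA libraries lay above both control libraries, as in 27.9% of genes with a mean above 0. GADD45A, a damage and stress response protein that acts in repair, arrest and stress kinase signalling, had 17.7 and 18.2 FPKM in washout, 26.3 and 22.7 FPKM with IAA, and 17.3 and 15.8 FPKM in control. IAA was above all others, and both washout libraries were above both control libraries. GADD45A rose 1.48-fold (log2 change 0.53, SE 0.086, limma adjusted p = 0.0265). XPC, the damage sensor of nucleotide excision repair, had 1.95 and 1.79 FPKM in washout, 2.30 and 2.38 FPKM with IAA, and 1.71 and 1.89 FPKM in control. Washout and control overlapped below IAA, and XPC rose 1.298-fold (log2 change 0.25, SE 0.05, limma adjusted p = 0.0405). Both calls were lost on FPKM without any 1 of the 6 libraries (GADD45A up to 0.123, XPC up to 0.155), and both held on recovered reads without each. POLH, the polymerase that copies past ultraviolet lesions, had 588 and 584 recovered reads in washout, 736 and 657 with IAA, and 476 and 480 in control. All 3 groups were apart, with a log2 change of 0.55 in IAA against control (SE 0.092, voom adjusted p = 2.39e-05; 4.84e-06 to 0.00199 without each library in turn). On log2(FPKM + 1) it passed with a filter at 0.1 and not with none (limma adjusted p = 0.0408 and 0.0679).

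RRM2B, the p53-inducible subunit of ribonucleotide reductase, had 5.13 and 4.87 FPKM in washout, 5.90 and 5.52 FPKM with IAA, and 5.16 and 4.98 FPKM in control. Its IAA values were the highest, 1.13-fold the control mean, and passed only on recovered reads, where the call was lost without control replicate 2 or IAA replicate 1 (voom adjusted p up to 0.16). DDB2, the partner of XPC in damage recognition, had 1.71 and 1.93 FPKM in washout, 2.02 and 1.96 FPKM with IAA, and 1.77 and 1.75 FPKM in control. IAA lay above control without passing (limma adjusted p = 0.18). In the repair group as a whole, 2 of 4 tested members rose on FPKM, against 6.64% of all genes, with a median log2 change of 0.199 against 0.014. On recovered reads 4 of 5 rose, against 13.7%, with a median of 0.377 against 0.036.

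Among the death receptors, TNFRSF10B, which encodes the TRAIL receptor DR5, had 4.37 and 4.30 FPKM in washout, 5.17 and 4.93 FPKM with IAA, and 4.37 and 4.45 FPKM in control. IAA was above the other 4 libraries, which overlapped. The 1.15-fold difference from control passed on recovered reads, also without each library in turn (voom adjusted p of 0.000539 to 0.0331), and missed on FPKM (limma adjusted p = 0.0543). TNFRSF10A, the other death-inducing TRAIL receptor gene, had 3.09 and 2.84 FPKM in washout, 2.91 and 2.75 FPKM with IAA, and 3.05 and 3.09 FPKM in control. Its IAA values lay below control and did not pass (limma adjusted p = 0.256). FAS, the receptor of FAS ligand, averaged 1.02 ± 0.0528 FPKM in washout, 1.17 ± 0.0345 FPKM with IAA and 1.09 ± 0.0689 FPKM in control (SD, n = 2 each; limma adjusted p = 0.447 in IAA against control). TNFRSF10C, a TRAIL receptor that lacks a death domain, had 108 and 117 recovered reads in washout, 132 and 103 with IAA, and 130 and 119 in control, and its IAA and control values overlapped.

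Of the genes of the mitochondrial route and other apoptosis genes, 0 of 7 passed in IAA against control on FPKM (limma), against 13.1% of all genes. BAX, PHLDA3 and FDXR had an unadjusted p under 0.05, as did 2627 of all 8317 genes. On recovered reads 1 of 8 rose and 1 fell (voom), against 13.7% and 10.2% of all genes. So 1 of 8 either way is near the share over all genes. BBC3, the BH3-only protein PUMA, had 169 and 142 recovered reads in washout, 191 and 226 with IAA, and 134 and 154 in control. IAA lay above the other 4 libraries, which overlapped. The BBC3 log2 change on recovered reads was 0.54 (SE 0.163, voom adjusted p = 0.0144), lost without control replicate 1 or IAA replicate 2 (up to 0.141). On log2(FPKM + 1) with a lower filter or none it did not pass (limma adjusted p = 0.0945 and 0.145). PMAIP1, the BH3-only protein NOXA, had 21.1 and 19.6 FPKM in washout, 24.1 and 25.8 FPKM with IAA, and 23.7 and 22.5 FPKM in control. IAA lay narrowly above control and did not pass (limma adjusted p = 0.304), and washout was lowest. BAX, the pore-forming effector, had 7.56 and 7.04 FPKM in washout, 6.64 and 7.05 FPKM with IAA, and 7.74 and 8.07 FPKM in control. IAA overlapped washout and lay below control, 0.866 of its mean. On recovered reads BAX fell by 0.21 on the log2 scale (voom adjusted p = 0.0437), a call lost without control replicate 1, control replicate 2, IAA replicate 1 or IAA replicate 2 (up to 0.265), and it did not pass on FPKM.

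The other tested members of this group did not pass in IAA against control, on FPKM or on recovered reads. FDXR, the mitochondrial ferredoxin reductase, had 7.88 and 7.68 FPKM in washout, 8.89 and 9.23 FPKM with IAA, and 7.91 and 8.41 FPKM in control, with IAA highest at 1.11-fold control (limma adjusted p = 0.124). PHLDA3, an inhibitor of AKT, had 7.28 and 7.01 FPKM in washout, 7.35 and 7.16 FPKM with IAA, and 6.557 and 6.497 FPKM in control, with control lowest (limma adjusted p = 0.0846). AEN, a nuclease of apoptosis, had 20.8 and 19.4 FPKM in washout, 18.7 and 19.3 FPKM with IAA, and 20.2 and 19.4 FPKM in control, with IAA narrowly lowest. These 3 all stayed short of the threshold in IAA against control. TRIAP1, an inhibitor of apoptosis that carries lipid into mitochondria, averaged 24.1 ± 1.14 FPKM in washout, 25.2 ± 0.0741 FPKM with IAA and 24.8 ± 1.14 FPKM in control (SD, n = 2 each). TP53I3, the quinone oxidoreductase PIG3, averaged 2.99 ± 0.0636 FPKM in washout, 2.89 ± 0.0404 FPKM with IAA and 2.74 ± 0.344 FPKM in control. For both, IAA and control overlapped.

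**Figure D4:**
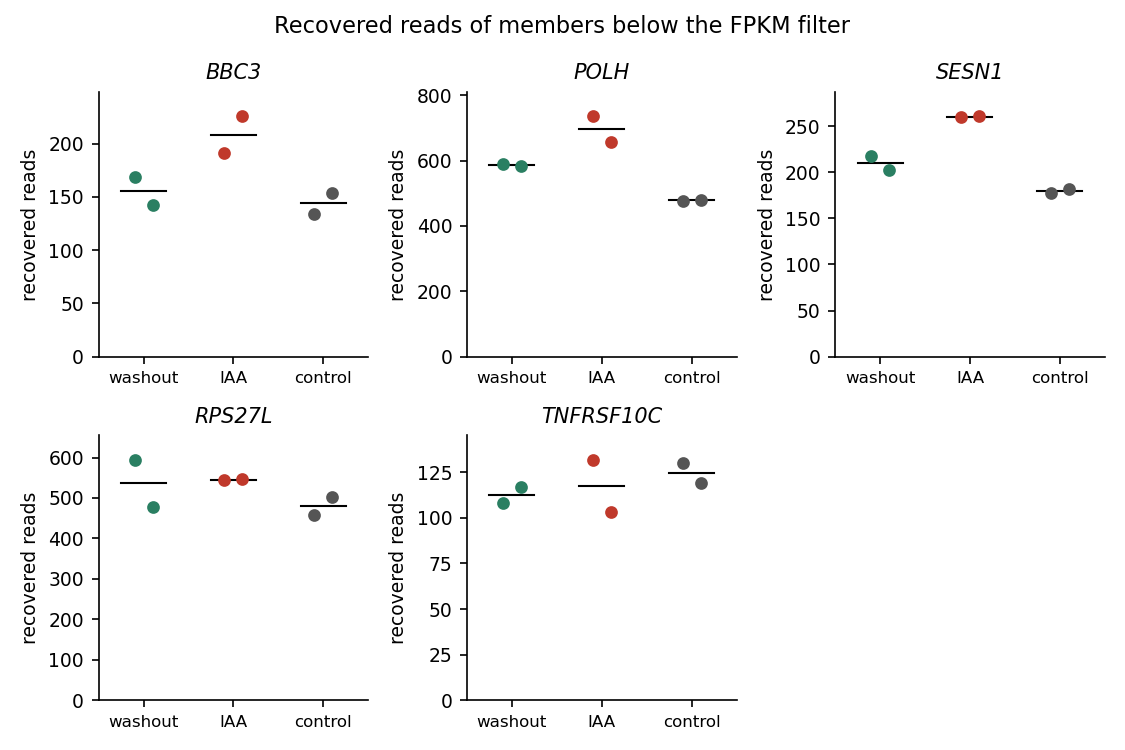
Recovered reads of the 5 members below the FPKM filter that were above 0, with points for the libraries, a line for the mean of each group of 2 and axes starting at 0. POLH and SESN1 have their groups apart, BBC3 has its IAA points highest, and the IAA and control points of TNFRSF10C overlap.

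The comparison of washout with IAA asked which transcripts differed after auxin was removed for 48 h. The washout cells were also washed with PBS and grown for those 48 h, which cannot be told apart from the removal of auxin. It uses the same IAA libraries as the comparison above, so the values are given side by side and are not independent. PLK2 rose 1.89-fold in washout against IAA (log2 change 0.88, SE 0.04, limma adjusted p = 0.0028), as 1 of 23 tested members (4.35%, against 7.73% of all genes). GDF15, TP53INP1, GADD45A, TNFRSF10B and PMAIP1 fell, 5 of 23 (21.7%, against 6.65%). GDF15 fell to 0.505 of its IAA level (log2 change -0.91, SE 0.058, limma adjusted p = 0.00458), TP53INP1 to 0.667 (-0.39, adjusted p = 0.0255) and GADD45A to 0.732 (-0.43, adjusted p = 0.0403). The changes of PMAIP1 (-0.28, limma adjusted p = 0.0465) and TNFRSF10B (-0.18, adjusted p = 0.0414) were smaller. The median log2 change was -0.102 over the tested members and 0 over all genes. Both washout libraries lay below both IAA libraries in 18 members and above both in 3, against 26.4% and 21.6% of genes with a mean above 0.

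Over all genes 643 rose and 553 fell in washout against IAA, and on the TPM scale 804 rose and 400 fell, so the higher share was 53.8% and 66.8%. On that scale PMAIP1 and TNFRSF10B did not pass. PLK2 passed on FPKM without any 1 library (adjusted p of 0.0201 to 0.0369), and GDF15 was lost only without IAA replicate 2 (limma adjusted p = 0.051; lowest 0.0256 without another library). TP53INP1, GADD45A, TNFRSF10B and PMAIP1 were lost on FPKM without any 1 of the 6 libraries (adjusted p of 0.059 to 0.163). On recovered reads 12 of 28 members fell (42.9%, against 13.4%) and 1 rose (3.57%, against 11.6%), where 25.1% of all genes passed in either direction, with a median log2 change of -0.164 against -0.019 over all genes. The 12 were those 5, CCNG1, XPC, RRM2B, MDM2, FDXR, BBC3 and POLH, of which BBC3 and POLH did not pass on log2(FPKM + 1) with a filter at 0.1 or none. MDM2, which did not pass in IAA against control, fell to 0.897 of its IAA mean (voom log2 change -0.16), and the call was lost without IAA replicate 1 or washout replicate 2 (voom adjusted p up to 0.124). SESN1 and PLK3, higher with IAA on recovered reads, did not pass in washout against IAA (voom adjusted p = 0.0837 and 0.252).

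In washout against control, 0 of 23 members passed on FPKM (limma), 0% as over all 8317 genes. Unadjusted, 750 genes and 3 members (PMAIP1, PHLDA3 and GDF15) had p under 0.05. On recovered reads 0 of 28 members passed against 0.638% of genes (94 of 14742, voom; 0.305% higher and 0.332% lower), and 5 members had an unadjusted p under 0.05, as did 1633 of the 14742 genes. Ratios of the washout mean to the control mean ran from 0.877 in GDF15 to 1.23 in POLH. In POLH, SESN1, GADD45A and PPM1D both washout libraries lay between the IAA and the control libraries. For PPM1D the gap to control was narrow (1.017 FPKM in washout replicate 2, 1.012 FPKM in control replicate 2). The share of all genes in that order was not counted, so the 4 are not set apart from other genes. Both washout libraries lay above both control libraries in 6 members and below both in 7, against 19.3% and 14.7% of genes. With 2 libraries per group, a p that misses the threshold does not show that the levels were alike.

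CDKN1A, which encodes the cycle inhibitor p21 and is a classic p53 target, had 28.98 and 28.42 FPKM in washout, 41.8 and 41.6 FPKM with IAA, and 30.3 and 31.1 FPKM in control. It rose 1.36-fold with IAA (limma adjusted p = 0.0092), with the IAA libraries far above the rest. Of 36 tested among 51 other direct p53 targets, 9 rose and 4 fell, against 6.64% and 6.49% of all genes, with a median log2 change of 0.067 against 0.014. On recovered reads 15 of 49 rose and 8 fell, against 13.7% and 10.2%, with a median of 0.116 against 0.036. The smallest adjusted p belonged to SERTAD1, a cycle regulator that rose 2.19-fold, and KITLG, the KIT ligand, which fell to 0.60 of control.

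Of 15 tested genes that p53 lowers through p21 and the DREAM complex, a repressor of cell cycle genes, 2 rose with IAA (the mitotic genes KIF20A and CDK1, named after their values were seen) and 13 did not pass, against 6.64% of all genes that rose, with a median log2 change of 0.051 against 0.014. On recovered reads 4 of 16 rose and 12 did not pass, against 13.7% of all genes that rose, with a median of 0.075 against 0.036. Of 9 tested integrated stress response genes among 13, 7 rose and 2 did not pass, against 6.64% of all genes that rose, with a median log2 change of 0.474 against 0.014. On recovered reads 11 of 12 rose, against 13.7%, with a median of 0.807 against 0.036. DDIT3, which encodes the death factor CHOP, had 2.82 and 3.26 FPKM in washout, 5.14 and 5.07 FPKM with IAA, and 2.41 and 2.67 FPKM in control. HERPUD1, a protein of endoplasmic reticulum quality control, had 2.98 and 2.78 FPKM in washout, 6.23 and 5.35 FPKM with IAA, and 2.82 and 2.57 FPKM in control. The summed FPKM of that list was 148 and 158 in washout, 245 and 235 with IAA, and 168 and 172 in control. ATF4, named because it leads this sum, had 76.1 and 81.7 FPKM in washout, 123 and 121 FPKM with IAA, and 85.4 and 89.7 FPKM in control. The sum was highest with IAA, as were GDF15 and GADD45A, and the part of the list in their change was not tested. SESN2 stands in both the stress list and the list of other p53 targets.

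**Figure D5:**
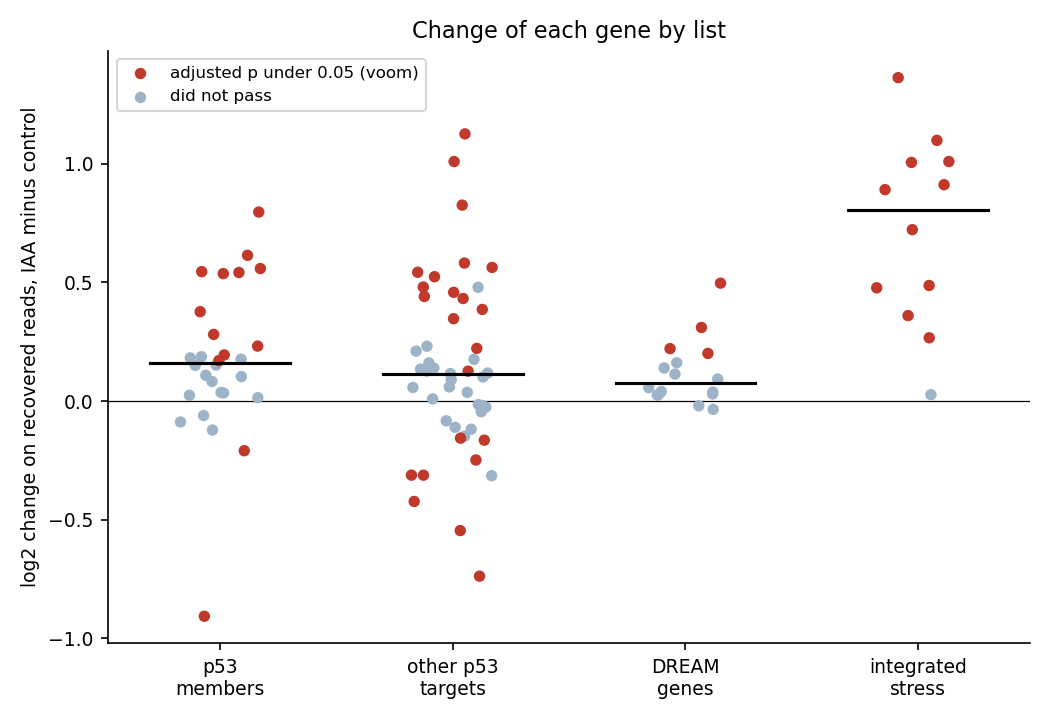
The log2 change on recovered reads, IAA minus control, of each gene tested, by list. Points in red had a voom adjusted p under 0.05 and the bar is the median of the list, 0.161 for the p53 members, 0.116 for other p53 targets and 0.807 for the integrated stress response.

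Calls were also counted by whether the promoter window held a p53 match. In IAA against control, 1 of 7 tested members with a match rose on FPKM (GDF15), against 6.64% of all genes, and 2 of 9 on recovered reads (GDF15 and SESN1), against 13.7%, so both counts are near the share over all genes. Of the 13 with a window and no match, XPC rose and PLK2 fell among 10 tested on FPKM, against 6.64% and 6.49% of all genes. On recovered reads CCNG1, PLK3, BBC3, XPC and POLH rose and PLK2 and BAX fell, among 12 tested, against 13.7% and 10.2%. In washout against IAA, GDF15 and PMAIP1 fell among 7 tested members with a match on FPKM, against 6.65% of all genes. On recovered reads GDF15, PMAIP1, MDM2 and FDXR fell among 9, against 13.4%. Of the members with a window and no match, PLK2 rose among 10 tested on FPKM in that comparison, against 7.73% of all genes. On recovered reads PLK2 rose, against 11.6%, and CCNG1, BBC3, XPC and POLH fell, against 13.4%, among 12. Of the 7 members without a window, TP53INP1 and GADD45A rose with IAA among 6 tested on FPKM, against 6.64% of all genes. On recovered reads those 2, TNFRSF10B and RRM2B rose among 7, against 13.7%. In washout against IAA, TP53INP1, TNFRSF10B and GADD45A fell among 6 on FPKM, against 6.65%. On recovered reads those 3 and RRM2B fell among 7, against 13.4%. The difference between members with and without a match was not tested. Sites outside the windows, such as those further upstream or within introns, were not searched.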

How the data were processed

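Poly(A)-selected RNA was sequenced in 6 libraries, 2 per group, and groups were taken from the sample titles. The values deposited are FPKM per gene and library. Per the submitters' processing notes, hg19 was the genome and HTSeq, edgeR, Bowtie2 and HISAT were used, and the sources used here give neither versions nor roles nor the strand counted. limma 3.58.1 in R 4.3.3 was fitted to log2(FPKM + 1) with a pseudocount of 1, a mean per group over all 6 libraries, a trend in the prior variance, 3 residual and 1.81 prior degrees of freedom, for the 8317 genes averaging at least 1 FPKM. Tests were two-sided, with Benjamini-Hochberg adjustment over all genes tested and a threshold of 0.05. Folds are ratios of mean FPKM, and the log2(FPKM + 1) scale shrinks changes of low genes. Since FPKM step by whole reads, reads were recovered from the steps with gene spans of GENCODE 29, which held 94.3% of the gene IDs. Whole reads (within 0.02) were found for 99.46% of the 21707 genes above 0, from the span for 16866 genes (18 members) and as the nearest whole solution for 4139 (10 members). Those 10 are MDM2, MDM4, PPM1D, FAS, PHLDA3, FDXR, DDB2 and, below the FPKM filter, BBC3, POLH and TNFRSF10C. Their reads and voom tests rest on a searched length in place of the GENCODE span. The sums of all recovered reads were 104.62% to 105.01% of the totals that the steps imply. Genes with a mean of at least 10 reads (14742) were tested with limma's voom, an alternative to the FPKM test and the main test of members below the filter, which alternatives with a lower filter or none also tested on FPKM. Members were described with 103 to 4728 reads per library. Both pipelines were also run on simulated data, with no outcome given here. The simulation was built from the recovered reads and their lengths, so it cannot show whether the recovery from the deposited FPKM is right. All 29 members were to be named, with every library's values for those that passed, and of the other lists CDKN1A and the 5 genes with the smallest adjusted p; 1 gene and the list that holds it are not reported here. The members and lists were chosen with earlier results of these data known. Alternatives were other pseudocounts, filters, TPM scaling, no trend, a replicate block, 2-group fits and leaving out each library; those on recovered reads (left-out libraries and block) were added after seeing the data. Promoter sequences are RefSeq's (GRCh38.p14), and no coordinate of another build was used.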

Additional observations from a re-analysis of the deposited data

How the results depend on the processing

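In IAA against control, the members that rose (4) were 2 with no filter, 2 with the replicate block, 1 with only the 2 groups compared, 11 by voom on recovered reads, and 0 to 1 with each library left out. The 1 that fell was joined by 1 more by voom, which called 2, and on recovered reads the count was 1 to 2 with a library left out and 1 with the replicate block. The 1092 changed genes were 486 with the replicate block, 536 with only the 2 groups compared, 3525 by voom and 57 to 538 with a library left out, and on recovered reads 2190 to 3724. In washout against IAA, the members that fell (5) were 2 with a filter of mean FPKM at least 0.1, 1 with no filter, 3 on the TPM scale, 1 with the replicate block, 1 with only the 2 groups compared, 12 by voom and 0 to 1 with a library left out, and on recovered reads 7 to 11. The 1196 changed genes were 532 with the block, 413 with only the 2 groups compared, 3694 by voom and 42 to 427 with a library left out. In washout against control the 0 changed genes were 28 with the filter at 0.1, 48 with no filter, 94 by voom and 0 to 1 with a library left out, and 0 members passed in each of these. The cause of these moves was not tested, except that the fits with a block, 2 groups or a left-out library have fewer residual degrees of freedom.

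Replicate numbers did not pair the libraries (correlations of same-numbered deviations of 0.043, 0.006 and -0.027 over the 3 comparisons), so the replicate block is no more than an alternative. Of 755 alternatives of 59 results for single members, 651 kept direction and side of the threshold, 82 lost it, 10 passed it and 12 changed sign. The sign changes are of members that passed nowhere. On the TPM scale the log2 change in IAA against control was -0.0172 for MDM4, -0.0091 for TRIAP1 and -2e-04 for ZMAT3, and in washout against IAA it was 0.0183 for PHLDA3. With a library left out, IAA against control gave -0.0357 to 0.0569 for MDM4, -0.0203 to 0.0696 for TRIAP1, -0.0337 to 0.1544 for TP53I3 and -0.0216 to 0.0621 for ZMAT3. Washout against IAA gave -0.0922 to 3e-04 for MDM4 and -0.0445 to 0.0043 for PHLDA3. Depth limits BBC3, SESN1 and TNFRSF10C most, which had no more than 261 reads in any library.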
